A study of Mus musculus with 2 samples.

Results

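The genes described here make up the MHC class I presentation pathway: the light chain gene B2m, the classical heavy chain genes H2-K1 and H2-D1, the peptide transporter genes Tap1 and Tap2, the loading factors Tapbp, Calr and Pdia3, the trimming peptidase gene Erap1 and the transactivator gene Nlrc5. These 10 genes were taken by symbol from the 43346 gene rows of each library, and all 10 were found. The assay was sequencing of total RNA from thymus, where T cells develop, of B6NCrl pups at postnatal day 0. Each of 2 libraries was made from both lobes of 1 pup, the pups shared 1 mother, and the sex of the pups was not collected. The labels name no treatment, genotype or second tissue, so the libraries are replicates 1 and 2 of a single group. With 1 group no condition could be compared, and a difference between the libraries has no replicate check and carries no p-value.

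MHC class I molecules carry peptides made inside a cell to its surface, where T cells with the coreceptor CD8 read them. Peptides cut by the proteasome are pumped into the endoplasmic reticulum by the TAP transporter, a pair of the Tap1 and Tap2 proteins, and are loaded onto a heavy chain bound to beta-2-microglobulin (B2m). Tapasin (Tapbp) holds the empty heavy chain at the transporter, calreticulin (Calr) and the disulfide isomerase Pdia3 assist in loading, and the aminopeptidase Erap1 trims peptides to length. In the thymus, class I on cortical epithelium selects developing CD8 T cells. Nlrc5 is known to switch on class I genes by binding to factors that sit on a promoter module made of an X box and a Y box. The mouse genome reference and the B6 strain carry the same class I haplotype, with H2-K1 and H2-D1 as its classical heavy chain genes.

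The libraries held 39045711 and 41576378 expected counts, which are estimated read counts per gene. Levels are TPM, a relative abundance scaled by transcript length, and are given for replicate 1 and then replicate 2, with mean ± SD (n = 2) where a single level is needed. Coordinates are GRCm38. A gene was called detected at a TPM of at least 1 in both libraries. Of the marker lists, all 6 T-lineage markers and all 4 cortical and all 4 medullary epithelial markers were detected, and 2 of 4 dendritic cell markers and 0 of 4 B-cell markers were. In whole tissue, fewer cells of a type and less RNA per cell cannot be told apart. The edgeR common dispersion corresponded to a spread of 11.7% between the libraries.

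Promoter sequences from RefSeq (GRCm38.p6) were at hand for 8 of the 10 genes, all except Tap2 and Nlrc5. They are shown because an exact-letter search found a shared module in B2m, H2-K1 and H2-D1. The search did not find it in the loading factor genes with an entry, and other spellings of its boxes were not searched. The module is 30 bases long and reads TGACG, then 20 bases of any kind, then ATTGG. The first 5 letters are X2, the part of the X box bound by CREB and ATF factors, and the last 5 are the Y box, bound by NF-Y. Both strands of the 250 bases before each RNA start were searched. The module was found in B2m, H2-K1 and H2-D1, and in no other of the 8 genes. It was found in 30 of 32851 mouse promoters (0.0913%), which belong to 26 genes, among them H2-M3, the 1 of 20 other class I heavy chain genes with a promoter entry that held it. The 4 modules are printed 5′ to 3′ with the X2 and Y letters in capitals; they lie at chr2:122147609-122147638 (+ strand), chr17:34000359-34000388 (− strand), chr17:35262993-35263022 (+ strand) and chr17:37270188-37270217 (+ strand).
B2m: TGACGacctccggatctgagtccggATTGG
H2-K1: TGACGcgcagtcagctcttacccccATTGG
H2-D1: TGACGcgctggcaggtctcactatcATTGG
H2-M3: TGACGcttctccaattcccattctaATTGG

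The 5 letters of X2 alone were found in 17.8% of promoters and those of Y alone in 33.8%. With the spacing set in turn to every number of bases from 10 to 30, the number of promoters holding both boxes ranged from 2 to 30. A spacing of 20 was met in 30 promoters and a spacing of 12 in 28. The 30 include those of B2m, H2-K1, H2-D1 and H2-M3. The spacing of 20 was chosen with these sequences known, so the scan is no test of it. None of the spacings other than 20 was met in any of the 8 genes.

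H2-K1 and H2-D1 also shared an upstream pair of motifs. A kappa B motif, searched as GGGG, 3 bases of any kind, then CCCC, is a site of NF-kappa B factors. It read GGGGATTCCCC in both genes and began 70 bases before X2 in both. A short interferon response motif, TTTC, 2 bases of any kind, then TTC, began 49 bases before X2 in both. Laid over each other at X2, the upstream stretches matched at 166 of 190 positions (87.4%). The kappa B letters were found in 0.874% of promoters, among them those of H2-Q6 and of Calr, where they read GGGGCGTCCCC. The short interferon letters were found in 6.31%. They were held by 6 of the 20 other heavy chain genes with a promoter entry, among them H2-Q6 and H2-M3, so H2-Q6 held both motifs as well. B2m held no kappa B match. It held the longer interferon motif instead, TTTC, 2 bases, then TTTC, on the opposite strand at positions −139 to −130 from its RNA start. That motif was found in 2.98% of promoters, among them those of H2-T22 and H2-T23. A match is a description of letters and does not show that a factor was bound. The upstream stretches of H2-K1 (chr17:34000348-34000597, − strand) and B2m (chr2:122147437-122147685, + strand) are printed 5′ to 3′ with kappa B, interferon, X2 and Y letters in capitals.
H2-K1: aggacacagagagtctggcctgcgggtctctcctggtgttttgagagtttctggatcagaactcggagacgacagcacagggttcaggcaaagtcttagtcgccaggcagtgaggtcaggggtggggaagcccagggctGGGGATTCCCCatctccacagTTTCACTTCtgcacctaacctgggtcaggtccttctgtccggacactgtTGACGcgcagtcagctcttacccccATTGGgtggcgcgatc
B2m: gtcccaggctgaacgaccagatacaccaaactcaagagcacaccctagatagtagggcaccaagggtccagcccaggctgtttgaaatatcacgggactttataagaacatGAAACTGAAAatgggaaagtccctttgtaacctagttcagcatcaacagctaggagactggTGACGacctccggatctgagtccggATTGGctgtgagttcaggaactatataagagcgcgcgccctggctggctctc

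Calr carried in addition the endoplasmic reticulum stress element, spelled CCAAT, 9 bases of any kind, then CCACG. Its CCAAT is the Y box letters read on the other strand. The element is known as a site through which the unfolded protein response raises chaperone genes. It was found in 37 of 32851 promoters (0.113%), and of the 13 genes of the folding list described further on that have a promoter entry it was found in 4. The elements are printed on the strand that reads them in this order, fixed letters in capitals; Hsp90b1 held a pair of them. They lie at chr8:84847075-84847093 (+), chr2:34772025-34772043 (+), chr10:86705638-86705656 (−), chr10:86705533-86705551 (+), chr12:17266491-17266509 (+) and chr11:50325800-50325818 (−).
Calr: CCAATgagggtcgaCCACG
Hspa5: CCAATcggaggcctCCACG
Hsp90b1, far: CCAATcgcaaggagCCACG
Hsp90b1, near: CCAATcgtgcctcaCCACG
Pdia6: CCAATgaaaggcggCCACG
Canx: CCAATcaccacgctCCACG

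Tap1 and the proteasome subunit gene Psmb9 start back to back. Their RefSeq RNA starts lie at 34187556 on the + strand and 34187330 on the − strand of chromosome 17, with 225 bases between them, so their 250-base windows overlap. Tap1, Tapbp, Erap1 and Pdia3 held no match to the whole module, kappa B, interferon or stress element in their windows. X2 letters without the module were found in Tap1 and Pdia3, and Y letters in Tap1, Tapbp and Pdia3. Of the 8 genes, 5 held X2 letters, beside 19.8% of all genes with a promoter entry. Y letters were held by 7 of the 8, beside 37.5%.

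**Figure D1:**
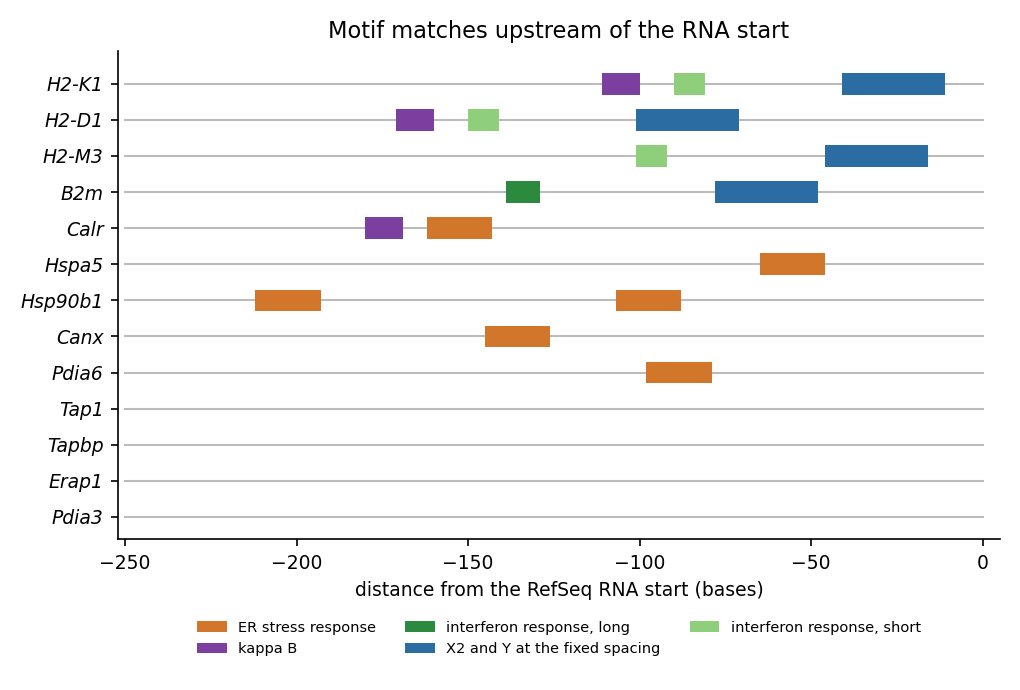
Motif matches in the 250 bases before the RefSeq RNA start (x axis, bases; 0 is the start) of the 8 genes with a promoter entry and of 5 genes shown for comparison. Coloured bars are matches on either strand, and X2 or Y letters outside the module are not drawn. H2-K1 and H2-D1 show the same order at the same distances, shifted against the RNA start. Tap1, Tapbp, Erap1 and Pdia3 show no bars.

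All 10 genes were detected, against 32.2% of all genes and 57.3% of protein-coding genes. Their levels spanned 527-fold from Nlrc5 to B2m, with a median of 203 TPM against 15.0 TPM over all detected genes. Together they held 0.3225% of the TPM of replicate 1 and 0.3314% of that of replicate 2. In order of mean level they ran B2m, H2-D1, H2-K1, Calr, Pdia3, Tap2, Tapbp, Tap1, Erap1 and Nlrc5. The values of H2-D1, H2-K1 and Calr overlapped between libraries, and in replicate 2 Calr was the second highest of the 10. Calr and Pdia3 overlapped as well. Every other step in the order was free of overlap, although Tap2 and Tapbp came within 1 TPM of each other.

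**Figure D2:**
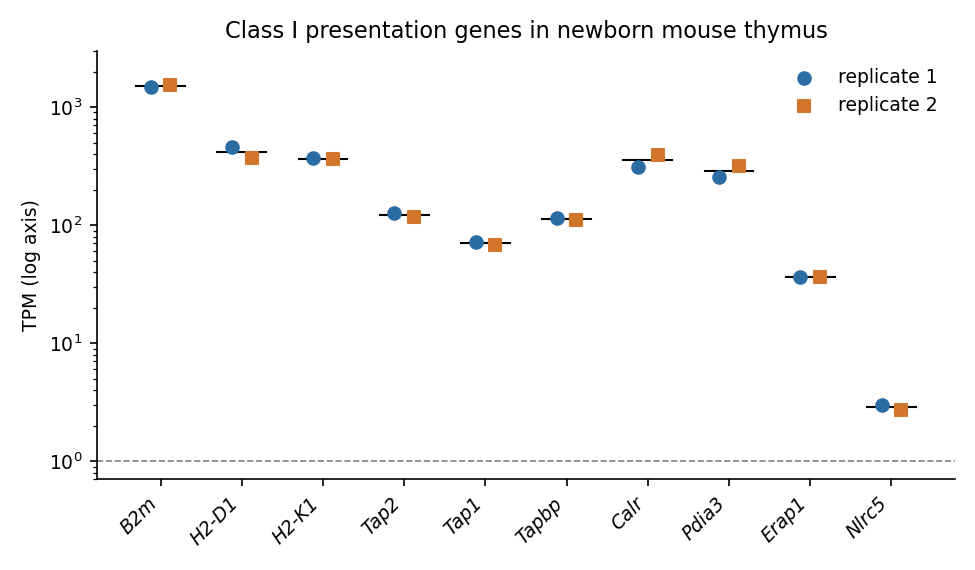
TPM (log axis) of the 10 class I presentation genes in replicate 1 (circles) and replicate 2 (squares); horizontal bars are means and the dashed line is the detection level of 1 TPM. B2m lies near 1507 TPM and Nlrc5 near 2.86 TPM, and Calr and Pdia3 are the genes whose replicate 2 lies furthest above replicate 1.

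B2m, the light chain shared by all class I molecules (chr2:122147686-122153083, + strand), stood at 1471 and 1543.5 TPM. These levels were 1507 ± 51.5 and ranked 76 among all genes and 59 among protein-coding genes. Its counts were 33005 and 37373. Its span lies within that of Patl2 on the other strand, a gene with 140 and 65 counts that shares no exon base with it, and B2m has a single annotated transcript. None of its 100-base windows was found in a transcript of another gene.

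H2-D1, a classical heavy chain (chr17:35262730-35267499, + strand), had 460.35 and 367.64 TPM, with 24186.91 and 21103.5 counts. H2-K1, the other classical heavy chain (chr17:33996017-34000347, − strand), had 372.56 and 359.7 TPM, with 16239.92 and 16964.35 counts. The libraries placed H2-D1 apart from H2-K1 in replicate 1 and nearly level with it in replicate 2. The ratio of H2-K1 to H2-D1 in TPM was 0.809 and 0.978, a mean of 0.894 ± 0.120. Light chain TPM exceeded the summed TPM of both heavy chains in each library, at ratios of 1.77 and 2.12.

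The H2-D1 level depends on where its transcript is taken to start. The deposited length of H2-D1-202, 2102 bases, begins 364 bases before the RefSeq start, and the module and upstream motifs of H2-D1 lie inside that stretch. Shortening the transcript to the RefSeq start while keeping its counts moved the mean ratio of H2-K1 to H2-D1 from 0.894 to 0.748, and that of B2m to both from 1.94 to 1.76. Heavy chain genes are also alike in sequence. Over windows of 100 bases, 4.64% of those of H2-D1-202 were found in transcripts of other genes, mainly H2-Q1, and 0 of those of H2-K1-201. Among the 10 genes, the deposited posterior SD of the gene counts was at most 16.25, for H2-D1 in replicate 1.

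Of 30 other class I heavy chain genes listed, 27 were measured and 15 were detected. H2-T23, whose product Qa-1 shows leader peptides of other class I chains to receptors of natural killer cells, was the highest at 133.96 and 112.25 TPM. H2-Q2 followed at 56.3 and 57.88 TPM, and H2-T22, whose product is bound by some gamma-delta T-cell receptors without a peptide, at 55.12 and 50.05 TPM. H2-Q7, which codes for the lipid-anchored Qa-2 antigen, had 32.45 and 31.37 TPM. H2-T10 had 24.7 and 24.33 TPM, H2-Q6 had 18.7 and 18.98 TPM, H2-M3, which presents formylated peptides, had 17.85 and 17.98 TPM, and H2-Q4 had 15.09 and 12.53 TPM. The other detected genes, H2-M2, H2-Q5, H2-T24, H2-Q10, H2-K2, H2-T3 and H2-Q1, lay between 1.19 and 8.11 TPM, H2-Q1 being the lowest and H2-M2 the highest.

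Together the other heavy chains held 384.59 and 352.25 TPM, which was 31.6% and 32.6% of all class I heavy chain TPM. This sum includes H2-T10, H2-Q5 and H2-Bl, annotated as polymorphic pseudogenes, and H2-K2 and H2-Q3, annotated as unprocessed pseudogenes. With all other heavy chains counted, the ratio of B2m to heavy chains was 1.21 and 1.43. The 12 measured genes below 1 TPM were H2-M10.5, H2-Q3, H2-M10.1, H2-M1, H2-Bl, H2-M5, H2-M10.2, H2-M10.3, H2-M9, H2-M10.4, H2-M11 and H2-M10.6. Of the longest transcripts in M21, that of H2-T22 shared 38.1% of its windows with other genes, mainly A930015D03Rik. That of H2-T10 shared 29.7%, mainly with BC023719, so the division of reads between these genes may be uncertain. Their other M21 transcripts shared at most 15.3% (H2-T22-201) and 11.8% (H2-T10-201). The deposited posterior SDs of the gene counts were 17.03 and 15.76 for H2-T22, on 2747.13 and 2683.73 counts. For H2-T10 they were 10.85 and 10.34, on 1455.79 and 1495.45 counts.

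**Figure D3:**
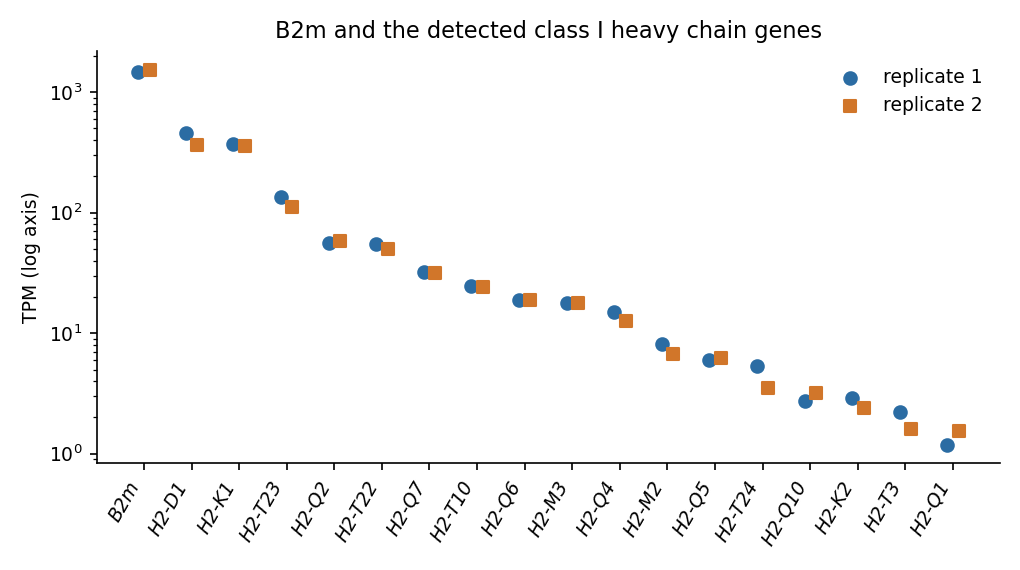
TPM (log axis) of B2m, of both classical heavy chain genes and of the 15 other class I heavy chain genes detected, in replicate 1 (circles) and replicate 2 (squares). H2-T23 is the highest of the other heavy chains, below H2-K1, and the remaining genes fall to about 1 TPM.

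The transporter genes lie near each other on chromosome 17, with Psmb8 between them. Tap2 (chr17:34203527-34216321, + strand) had 126.18 and 116.4 TPM from 9573.59 and 9546.64 counts. Tap1 (chr17:34187553-34197225, + strand) had 72.28 and 68.1 TPM from 5624.86 and 5776.05 counts. Tap2 was thus above Tap1 in both libraries without overlap, although their proteins work as a pair, and the ratio of Tap1 to Tap2 was 0.573 and 0.585. The immunoproteasome genes that alternate with them on the chromosome were higher. Psmb9, beside Tap1, had 202.68 and 213.27 TPM, which was 2.80 and 3.13 times Tap1, and Psmb8 was 5.46 and 5.79 times Tap2. Psmb9 and Tap1 overlap by 212 exon bases on opposite strands, and 3.96% of the windows of Tap1-206 were shared with Psmb9.

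The order of the transporter genes turned on 1 transcript. Tap2-202, annotated as keeping an intron, was assigned 84.9% and 85.4% of Tap2, and the coding transcript Tap2-201 14.35% and 14.16%. Tap2-202 shares 2399 of its 2561 bases with Tap2-201. It differs in keeping a 162-base intron (chr17:34212068-34212229), and it lacks 1043 bases of Tap2-201, of which 1040 form the start of that transcript (chr17:34203527-34204566). With protein-coding transcripts alone, Tap2 fell from a mean of 121 TPM to 18.99 and 16.98 TPM in the libraries, and the ratio of Tap1 to Tap2 became 3.71. Of the windows of Tap2-202, 7.84% were shared with other genes, mainly the antisense Gm15821, which held 38.63 and 36.35 counts.

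Tapbp, which codes for tapasin (chr17:33915899-33929292, + strand), had 115.52 and 109.68 TPM from 8449.17 and 8579.6 counts. Its level was 1.60 and 1.61 times that of Tap1. Its relative Tapbpl, a peptide editor that acts away from the transporter, had 43.72 and 35.24 TPM, so Tapbp exceeded it 2.64-fold and 3.11-fold. Tapbp shares 904 exon bases with the antisense gene Gm19412, which had 0.87 and 0.80 TPM, and 149 with Zbtb22 on its own strand, which held 894 and 879 counts.

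Calr (chr8:84841850-84846934, − strand), the gene of the lectin chaperone calreticulin, had 311.61 and 394.23 TPM from 16583 and 23511 counts. Pdia3 (chr2:121413775-121438687, + strand), the gene of the disulfide isomerase bound to tapasin in the loading complex, had 255.71 and 315.59 TPM from 15857 and 21609 counts. Replicate 2 was the higher library for both. On the scale of TMM-scaled counts, Calr was 1.36-fold and Pdia3 1.30-fold higher in replicate 2 (log2 ratios of 0.44 and 0.38), and the ratio of Calr to Pdia3 was 1.22 and 1.249. Of all genes at a mean count of at least 50, 9.19% differed more than Calr and 12.3% more than Pdia3.

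Erap1 (chr13:74639568-74693201, + strand), the gene of the peptidase that trims peptides in the endoplasmic reticulum, had 36.55 and 36.25 TPM from 4220 and 4516 counts. It has 1 transcript in the deposited tables, of 4014 bases, and the same transcript has 5644 bases in M21. In M21 its gene overlaps Cast on the other strand by 834 exon bases, and Cast held 2943 and 2957 counts. Among 8 measured peptidases of the list all were detected, and Blmh was the highest at 92.32 and 88.45 TPM. Nrdc was not analysed here.

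Nlrc5, the class I transactivator gene (chr8:94434356-94527272, + strand), was the lowest of the 10 at 3.01 and 2.71 TPM from 310 and 288 counts. H2-D1 exceeded it 153-fold and 136-fold. Ciita, which plays the like part for MHC class II genes, was 4.10 and 4.31 times as high, at 12.35 and 11.68 TPM. Nlrc5 was also the lowest of the 17 genes in the list of factors that act on class I promoters, all of which were detected. Irf1, a factor that binds interferon response motifs, had 86.28 and 93.97 TPM.

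The genes of the factors that hold Nlrc5 on the X and Y boxes were all detected as RNA, and protein was not measured. Of the RFX complex, Rfxap had 34.79 and 35.88 TPM, Rfxank 11.64 and 11.32 TPM, and Rfx5, its DNA-binding subunit, 5.99 and 5.83 TPM. Of NF-Y, which binds the Y box, Nfyc had 70.31 and 74.55 TPM, Nfyb 63.13 and 65.83 TPM and Nfya 10.88 and 12.49 TPM. Of the X2-binding factors, Atf1 had 55.28 and 39.5 TPM and Creb1 32.39 and 35.07 TPM. Rfxank and Rfx5 of RFX and Nfya of NF-Y thus lay below 13 TPM and above Nlrc5, while both X2-binding factors stood above 13 TPM.

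The kappa B factors Nfkb1 and Rela had 43.95 and 42.03 TPM, and 39.53 and 45.2 TPM. Irf8 had 59.7 and 60.71 TPM, Irf9 41.26 and 38.59 TPM, Stat2 15.3 and 15.22 TPM and Irf2 13.01 and 13.99 TPM. Of the interferon genes in the receptor and kinase list, Ifng had 0.70 and 0.45 TPM from 23 and 16 counts, and Ifnb1 had 0 and 1 counts. All 7 receptors and kinases of that list were detected, led by the interferon gamma receptor gene Ifngr1 at 534.14 and 450.4 TPM.

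Between the libraries, 2 of the 10 genes, Calr and Pdia3, differed by over 25%, the higher library over the lower, beside 16.5% of 14155 genes. Both were higher in replicate 2, a direction in which 6.34% of genes passed that level. None passed 2-fold, beside 1.36% of genes. The median log2 ratio of the 10 was −0.01, against 0.02 over all genes. The remaining 8 lay within 25%, H2-D1 being the nearest to it at 1.20-fold higher in replicate 1 (log2 ratio −0.26), and H2-K1 differed least, at a log2 ratio of 0.00. With TMM scaling 4 were higher in replicate 2 and 6 in replicate 1, while DESeq2 size factors gave 5 and 5, TPM ratios 3 and 7, and spike-in scaling 10 and 0 because it moved the median of all genes to 0.71. Relative to that shift, Calr stood at 0.42.

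**Figure D4:**
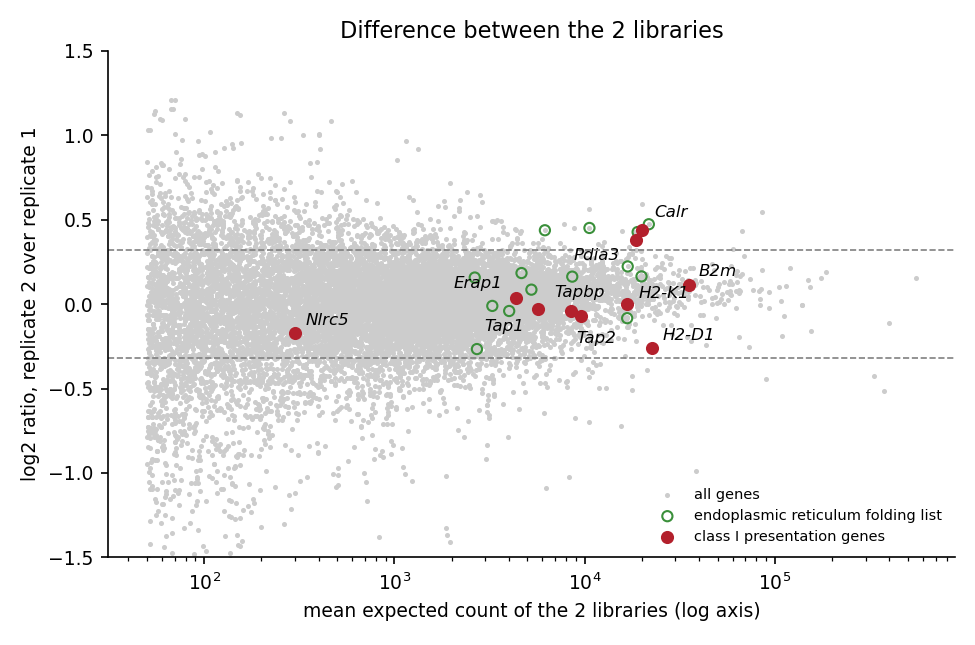
Log2 ratio of replicate 2 over replicate 1 (y axis, TMM-scaled counts) against mean expected count (x axis, log) for 14155 genes, with the 10 class I presentation genes as filled points, the folding list as open circles and a difference of 25% as dashed lines. Calr and Pdia3 lie above the upper line beside 4 folding genes, and 64 genes beyond a log2 ratio of 1.5 in either direction are not drawn.

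The list of 14 endoplasmic reticulum folding genes does not contain Calr or Pdia3. It was chosen with earlier results of these data known, so its counts describe the libraries and are no test. The list was wholly detected, and its median log2 ratio was 0.16. With TMM scaling 10 were higher in replicate 2 and 4 in replicate 1, beside 53.9% of all genes higher in replicate 2. Of the 14, 4 passed 25%, all higher in replicate 2, beside 6.34% of all genes. Hspa5, the main chaperone of this compartment, had 283.46 and 391.13 TPM and a log2 ratio of 0.47. Hsp90b1 had 196.75 and 266.3 TPM and a log2 ratio of 0.43. Pdia6 and Pdia4, both disulfide isomerases, had log2 ratios of 0.45 and 0.44, and were named after their values were seen. Bcap31, known as an export receptor of class I molecules, had 240.13 and 260.53 TPM and a log2 ratio of 0.16. Canx, the membrane-bound counterpart of Calr, had 161.93 and 176.44 TPM and the same ratio of 0.16, and Tapbpl ran the other way at −0.27, as did Edem1 at −0.08, Sel1l at −0.04 and Prkcsh at −0.01.

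The genes with the stress element printed above overlapped with this set in part. Of the 5 with a printed element, Calr, Hspa5, Hsp90b1 and Pdia6 passed 25%, all higher in replicate 2, beside 6.34% of all genes. Canx did not pass, and Pdia3 had no such element. Among all 35 genes with the element, 16 reached a mean count of 50. Of these, 6 were over 25% higher in replicate 2 (Calr, Hsp90b1, Pdia6, Creld2, Hspa5 and Alg12), beside 6.34% of all genes. Another 2 were over 25% higher in replicate 1 (Xlr3a and Xlr3b), and 16.5% of all genes passed 25% in either direction. The median log2 ratio of the 16 was 0.13, against 0.02 over all genes. The motif was searched with these ratios known, so the counts describe the libraries and are no test. Of 26 genes with the X2 and Y module, 18 reached a mean count of 50, and their median log2 ratio was 0.04. In each direction 1 of them passed 25%, beside 16.5% of all genes in either direction.

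Markers of most cell types ran higher in replicate 2 with TMM scaling, beside 53.9% of all genes. All 4 cortical epithelial markers did, with summed TPM of 1298.82 and 1349.9, and Foxn1 and Psmb11 passed 25%, while Ccl25 was lower there in TPM. All 4 mesenchymal markers did, with summed TPM of 265.81 and 303.79, Pdgfra passing 25%. All 6 T-lineage markers did, with summed TPM of 2458.69 and 2516.54 and none passing, although Lck was lower there in TPM. All 4 macrophage markers did, with summed TPM of 224.71 and 243.22 and none passing, although Cd68 was lower there in TPM, and 3 of 4 medullary epithelial markers did, with summed TPM of 444.7 and 478.38, Fezf2 passing 25%. Of 4 endothelial markers 3 did, with summed TPM of 62.47 and 63.76 and none passing. The part of these cells in the difference of Calr and Pdia3 was not tested. H2-D1 ran in the other direction, as did 3 of 4 dendritic cell markers, with summed TPM of 5.68 and 4.95, and their part in it was not tested. The B-cell markers were low, the highest being Cd79a at 1.20 and 0.88 TPM.

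The 10 genes have 46 transcripts in the deposited tables, and 38 of them were assigned counts. In 9 of 10 genes the transcript with the highest share of the gene's abundance was the same in both libraries. H2-K1-201 held 69.51% and 71.08% of H2-K1, and H2-K1-205, which shares 97.7% of its bases with it, held 23.97% and 23.38%. H2-D1-202 held 86.92% and 88.27% of H2-D1. Tap1 was divided between Tap1-206 at 53.71% and 52.32% and Tap1-201 at 37.33% and 40.83%. Tap1-206 contains every base of Tap1-201 and 339 more, and the first of them overlap Psmb9.

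Shares on a per-length scale gave weight to short transcripts. Pdia3-203, a 722-base form annotated as a target of nonsense-mediated decay, held 27.3% and 25.16% of Pdia3 from 1282.51 and 1573.77 counts, while Pdia3-201 took 14553.03 and 20023.43 counts. Calr-204, a 943-base form that keeps an 87-base intron (chr8:84844784-84844870), held 19.06% and 13.89% of Calr. Its counts were 1478.19 and 1470.6, so the higher count of Calr in replicate 2 lay in Calr-201, with 14886.71 and 21787.64. Tapbp-204, which keeps a 78-base intron (chr17:33926350-33926427), held 12.74% and 13.87% of Tapbp.

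Nlrc5 was the gene without a shared highest transcript. In replicate 1 the authors' estimate put 85.11 counts on Nlrc5-203, annotated as keeping an intron, and 0 on the coding Nlrc5-202. In replicate 2 it put 0 on the former and 84.36 on the latter. All 1721 bases of Nlrc5-202 lie in Nlrc5-203, which has 6 bases more, and the deposited posterior SDs of these 4 counts ran from 22.27 to 26.81. The longer coding form Nlrc5-201, of 6945 bases, took 221.78 and 199.88 counts and was the highest by count in both libraries. Its TPM was 1.10 and 0.92, so in replicate 2 it alone would lie below the detection level.

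**Figure D5:**
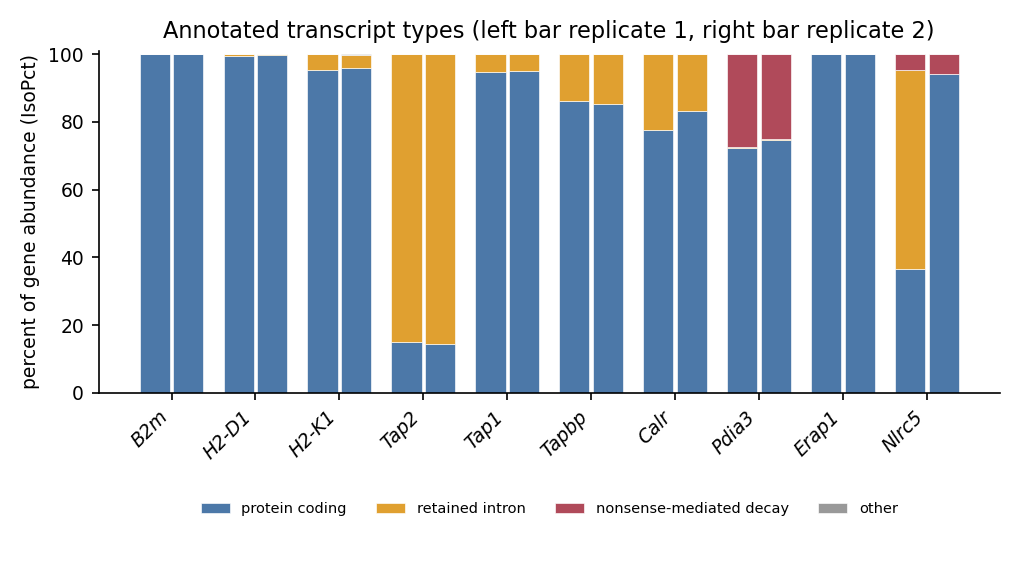
Share of each gene's abundance (IsoPct, percent) by annotated transcript type in replicate 1 (left bar) and replicate 2 (right bar). Tap2 is mostly assigned to an intron-keeping transcript in both libraries, and Nlrc5 is the gene whose bars differ in kind.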

How the data were processed

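Total RNA of the thymus of 2 newborn pups was sequenced as 1 library each. Per the labels' protocols, RNA came from a mirVana kit, 10 ng entered a library, molecules above a size limit were kept, spike-ins were added and a low-input kit manual was cited. Expected counts were deposited by the authors as estimated counts without normalization. TPM and FPKM were deposited by the authors, both per transcript length. The percent of a gene's abundance per transcript (IsoPct) was deposited by the authors, as were posterior SDs of counts. Per the deposited read-me texts the build is mm10 and the annotation M4. Which aligner and quantifier were used, and whether strand was, is not given in the sources used here, so reads of overlapping antisense genes could not be told apart. Effective lengths were transcript lengths less 99 bases.

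Symbols and coordinates were looked up in GENCODE M21 (GRCm38) with identifier versions removed, matching 42462 of 43346 gene rows. Expected counts were rounded for edgeR 4.0.16 (R 4.3.3). Log2 ratios are replicate 2 over replicate 1 after TMM scaling with a prior count of 0.5, set beside all genes at a mean count of at least 50. A count of 0 allows up to 3 counts, which is 0.0768 and 0.0722 CPM and covers counting error only. Shared sequence was counted as 100-base windows of a transcript found, on either strand, in M21 transcripts of another gene. M21 lengths of H2-K1-201, Tapbp-201 and Erap1-201 differ from the deposited ones, so exon overlaps and window shares of these genes may not hold for the deposited counts. Motifs were searched in RefSeq promoters as spelled in the text. Data were simulated for replicate 2 over replicate 1 with 43346 genes. The direction was recovered for 99% of genes changed 1.5-fold and 100% of those changed 4-fold. Calr (1.36-fold), Pdia3 (1.30-fold) and the level of 25% lie below these folds, so the check does not cover them. How often unchanged genes pass 25% was not tested.

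The 10 genes and 10 lists (120 of 124 genes measured) were chosen with earlier results of these data known, and the motifs after the sequences and ratios were seen. The text names the 10 genes, of each list the 3 highest, the other heavy chains, the promoter factors, genes below 1 TPM and genes overlapping one of the 10. Some list genes are not reported here. Alternatives changed thresholds, scaling (DESeq2 1.42.0, spike-ins, TPM), prior, unit, transcripts used and single libraries. Python 3.11.15, pandas 2.3.3, numpy 2.4.6 and matplotlib 3.10.9 were used.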

Additional observations from a re-analysis of the deposited data

How the results depend on the processing

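Of 31 recomputed values of the counts, medians and ratios, 24 stayed within their tolerance (1.5 times for a count, 0.1 for the median log2 ratio, 1 SD of the libraries for a ratio) and 7 moved. The 6 ratios of a library alone are left out of this tally, since with 2 libraries they cannot leave the SD. Several of the 24 could not move either, so the tally does not measure how firmly the results hold. A detection level below 1 TPM, or 1 library alone, had to give 10 detected genes, since all passed 1 TPM in both. Other limits on mean count could not change the number over 25%, since all 10 were already counted and Calr and Pdia3 lie far above each limit. FPKM and counts per effective length give the TPM ratios in another unit. Spike-in scaling, which rests on 659 and 427 spike-in counts, put 10 genes over a difference of 25% and the median log2 ratio at 0.68, and at the same time 92.9% of all genes over that level. The ratio of B2m to heavy chains was 1.32 with all heavy chains counted. The ratio of H2-K1 to H2-D1 was 0.738 in expected counts and 0.748 with the highest H2-D1 transcript taken from the RefSeq start, a choice made after seeing the data. The ratio of Tap1 to Tap2 was 3.71 with protein-coding transcripts alone and 0.596 in expected counts. Each library alone gave 1.77 and 2.12, 0.809 and 0.978, and 0.573 and 0.585 for these ratios, and 10 genes detected. In each library alone, 9 genes had as highest transcript the one with the highest mean share. This follows from the 9 genes whose highest transcript was the same in both libraries. With a TPM of 5 or 10 as the detection level, 9 were detected, all but Nlrc5. Single levels moved by 1.26-fold for all 10 on rescaling to nuclear protein-coding genes, and down to 0.148-fold (Tap2) with protein-coding transcripts alone. No paired analysis was possible because there is only 1 group. Depth limits Nlrc5 most, whose transcripts rest on fewer than 222 counts each.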

Other observations

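Class I-like molecules, which share the fold but do different work, were present at lower levels. Of 12 measured, 7 were detected. Cd1d1, which presents lipids to natural killer T cells, had 55.81 and 43.98 TPM. Fcgrt, the neonatal antibody receptor, had 32.86 and 37.35 TPM, and Mr1, which presents vitamin metabolites to a set of innate-like T cells, had 27.91 and 25.68 TPM. The 5 below 1 TPM were Raet1e, Raet1d, H60b, Azgp1 and H60c, most of them ligands of the activating receptor Klrk1.

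Of receptors that bind class I, the coreceptor genes led: Cd8b1 had 1019.89 and 1062.75 TPM and Cd8a 376.23 and 384.09 TPM. Cd160 followed at 21.61 and 24.64 TPM. Klra7, Klra4 and Klra1, genes of natural killer cell receptors, lay below 1 TPM, with 0 counts for Klra4 and Klra1 in both libraries. With TMM scaling all 7 detected receptors were higher in replicate 2, beside 53.9% of all genes, although Klrk1 and Pirb were lower there in TPM, and 1 of the 7, Klrd1, passed 25% (161 and 247 counts).

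Of the class II list, Cd74, H2-Ab1 and H2-Aa stood above both classical class I heavy chains. Cd74, the invariant chain, had 1630.29 and 1610.31 TPM, H2-Ab1 1265.79 and 1244.95 TPM and H2-Aa 818.51 and 819.54 TPM. Of this list of 10, 9 were detected. Of the 9 at a mean count of at least 50, 0 differed by over 25%, beside 16.5% of all genes. The pseudogene H2-Ea-ps lay below 1 TPM, at 3 and 1 counts.

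Of proteasome catalytic subunits and activators, all 10 were detected and all 10 ran higher in replicate 2 with TMM scaling, beside 53.9% of 14155 genes, although Psmb8, Psme1 and Psme2 were lower there in TPM. The immunoproteasome gene Psmb8 led at 689.38 and 673.83 TPM, before the constitutive subunit gene Psmb6 at 610.59 and 621.28 TPM and the activator gene Psme2 at 519.8 and 510.97 TPM. Psmb11, the thymus-specific subunit of cortical epithelium, passed 25% (log2 ratio 0.56).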
